A study of Mus musculus with 12 samples.

Results

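The genes described are 10 tubulin genes of the mouse oocyte: the α-tubulin genes Tuba1a, Tuba1b and Tuba1c, the β-tubulin genes Tubb2a, Tubb2b, Tubb3, Tubb4b, Tubb5 and Tubb6, and the γ-tubulin gene Tubg1. They were chosen by name, with earlier results of these data known. Each was taken as the row with that symbol in the deposited gene tables of the 2 stages studied. All 10 were among the 22801 genes listed at metaphase II (MII, the mature egg), and 1, Tuba1b, was among the 3475 genes listed at the germinal vesicle stage (GV, the arrested oocyte before maturation). The GV table held only genes that the study had already selected for a difference between genotypes, so absence from it means that a gene was not selected, not that it was not expressed. RNA was sequenced from tubes of 15 oocytes of C57BL/6 females at postnatal day 35. Control oocytes, labelled WT, came from mice of genotype Lsm14bfl/fl, and conditional knockout oocytes, labelled CKO, from Lsm14bfl/fl-Gdf9-Cre mice, so both groups carried the floxed alleles and only CKO carried the recombinase. Gdf9-Cre acts in oocytes of early follicles, so the surrounding follicle cells keep the gene, and none of the groups carried Cre without the floxed alleles. Each genotype had 3 libraries at each stage, 12 in all, and the labels call the replicates biological.

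Microtubules are hollow polymers of α-tubulin and β-tubulin, which pair as a dimer before they assemble, while γ-tubulin nucleates new microtubules. Mammals encode each class in several genes, called isotypes, whose proteins differ mostly in their acidic C-terminal tails, where enzymes add and remove amino acids. A mouse oocyte builds its meiotic spindle from many microtubule organizing centres without centrioles, at a time when it makes little or no new RNA and draws on transcripts stored during growth. Cells also degrade α-tubulin and β-tubulin mRNA when free tubulin dimers are abundant. Lsm14b, an RNA-binding protein of cytoplasmic ribonucleoprotein granules, is linked to the storage and translation of such transcripts.

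The isotype genes are so alike that reads from one can be hard to assign. Shown are Tubb2a, the member called at MII, its near copy Tubb2b and the steadier Tubb4b. Their last 60 coding bases before the stop codon, which encode the variable tail, show where the RNA sequences part. They are printed 5′ to 3′ from GENCODE release M21 transcripts, with capitals marking bases that differ from Tubb2a at the same distance from the stop codon.
Tubb2a: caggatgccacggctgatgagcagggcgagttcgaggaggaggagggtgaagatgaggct
Tubb2b: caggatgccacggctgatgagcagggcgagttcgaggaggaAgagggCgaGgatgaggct
Tubb4b: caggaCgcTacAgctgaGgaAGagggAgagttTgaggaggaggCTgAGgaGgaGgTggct
Within this window Tubb2b differed from Tubb2a at 3 bases and Tubb4b at 15 bases. The 3 bases of Tubb2b do not change the encoded residues, so this window parts that pair in RNA but not in protein. Over the whole coding sequence, Tuba1a and Tuba1b were 98.3% identical, Tuba1b and Tuba1c 97.9%, and Tubb2a and Tubb2b 96.5%.

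How far a short read can separate the genes was counted as the share of all 50-base stretches of a gene's longest coding transcript that also occur in another annotated gene. That share was 83.1% for Tuba1b, 75.5% for Tuba1a and 61.0% for Tuba1c. It was 55.5% for Tubb4b, 49.6% for Tubb2a and 39.3% for Tubb2b. The commonest partners were Tuba1c for Tuba1b, Tubb2b for Tubb2a, and a pseudogene, Tubb4b-ps1, for Tubb4b. Tubg1 shared 14.1% of its stretches, chiefly with Tubg2, Tubb5 shared 0.115%, and Tubb3 and Tubb6 shared none. With stretches of 150 bases the share was still 57.9% for Tuba1b and 27.9% for Tubb2a. How the study's counting treated reads that match several genes is not given in the sources used here, so the split of reads within the Tuba1 trio and between Tubb2a and Tubb2b is uncertain. The annotation also placed a second gene over parts of Tuba1a and Tuba1b on the same strand (Gm49450), an antisense gene over Tuba1b (Gm41396), and Fam166a on the opposite strand over 121 bases of Tubb4b.

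**Figure D1:**
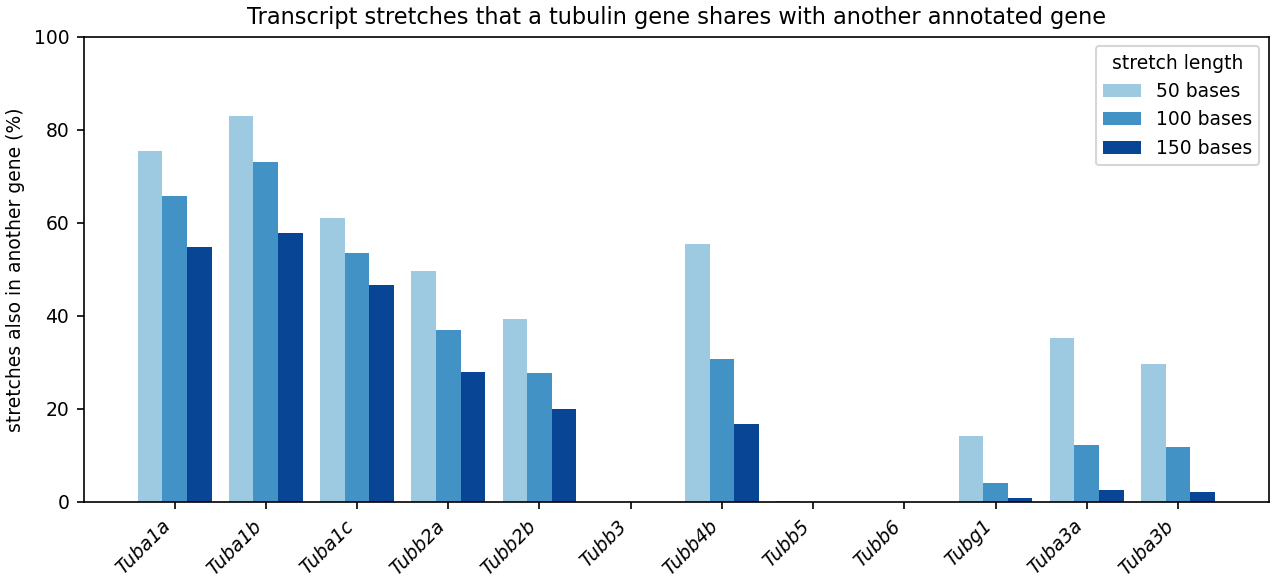
Share (percent) of the stretches of 50, 100 and 150 bases in each tubulin gene's longest coding transcript that also occur in another annotated gene. The 3 Tuba1 genes share the most at every length, from 46.7% to 83.1%, whereas Tubb3 and Tubb6 share none.

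The MII libraries differed in depth and in likeness. WT libraries held 88494525 to 124872889 reads and CKO libraries 23077585 to 40530314, and every member was covered by at least 610 reads in every library. WT replicate 3 stood apart, its Spearman correlation over genes lying between 0.847 and 0.877 to each of the remaining 5 libraries and theirs to one another between 0.899 and 0.940, and the genotype difference of each member is given with and without it. Lsm14b, the targeted gene, was at 11051 ± 524 normalized read counts in WT and 908 ± 80.9 in CKO at MII (n = 3 each, SD), and at GV it was at 22931 ± 6257 and 1436 ± 164 (n = 3 each, SD), with no overlap between the genotypes at either stage. The values carry the authors' scaling between libraries, so a change of total RNA per oocyte would not appear in them.

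Among the 10 members at MII, the one difference past the threshold was that of Tubb2a, whose lowest CKO library lay above its highest WT library. By limma on log2(normalized count + 1), with p-values adjusted over 20388 genes and a threshold of 0.05, 1 of the 10 members rose (Tubb2a), none fell and 9 were not past the threshold. Among all genes tested, 0.520% were called higher and 0.991% lower by the same rule. At an unadjusted p under 0.05 limma gave 3 members, all of them higher in CKO (Tubb2a, Tuba1b and Tubb2b), where 6.70% of all tested genes were higher and 9.28% lower at that threshold. The authors' deposited table had Tubb2a, and no other member, as higher at an adjusted p under 0.05 and no member as lower, against 4.60% and 6.94% of the genes for which it gives an adjusted p. Libraries of the genotypes did not overlap for 3 members that were higher in CKO (Tubb2a, Tubb2b and Tubb6) and for none that was lower. Among all tested genes, 10.4% were higher and 12.0% lower without overlap. The limma log2 difference, CKO minus WT, was positive in 7 members and negative in 3, with a median of 0.46, against -0.11 for all genes tested. Those signs depended on single libraries in 3 members: Tuba1a turned negative without CKO replicate 2, Tubb5 turned negative without WT replicate 3, and Tubb3 turned positive without WT replicate 3 or CKO replicate 3.

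**Figure D2:**
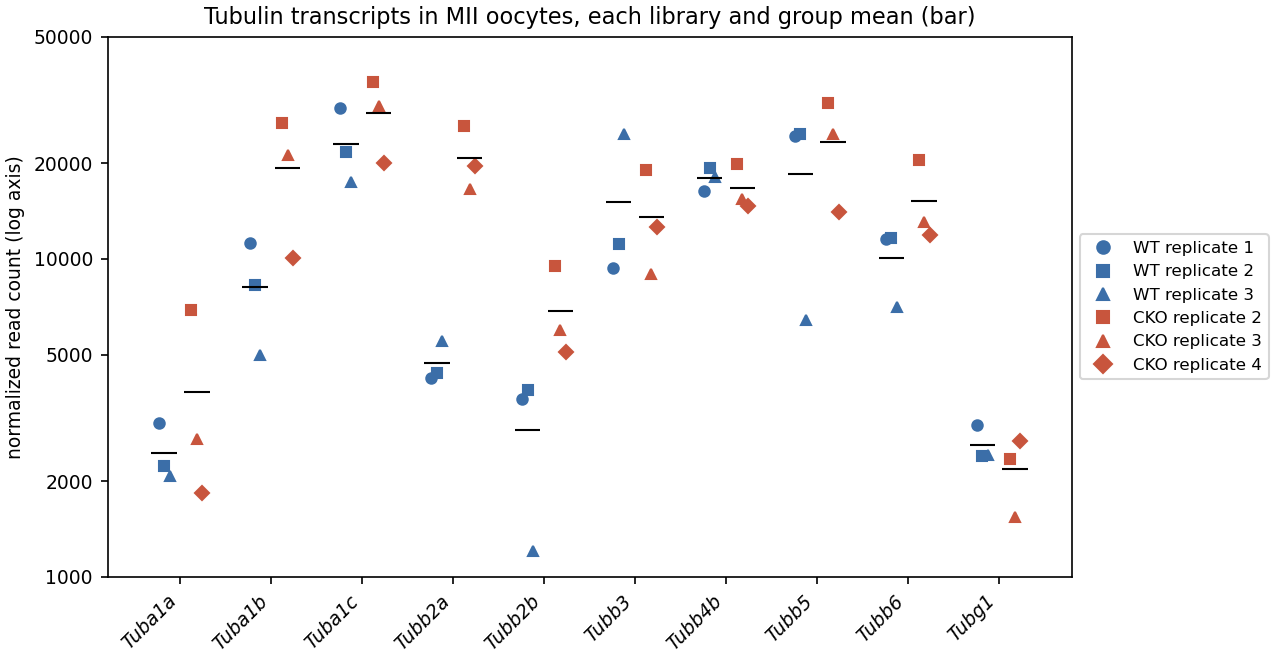
Normalized read count (log axis) of each tubulin member in the 3 WT and 3 CKO libraries at MII, with a bar at each group mean and a marker for each library. Tubb2a, Tubb2b and Tubb6 are the members whose CKO points all lie above their WT points, and for Tubb2a the groups are farthest apart, at 4218 to 5518 and 16558 to 26191.

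Tubb2a encodes a β-tubulin isotype best known from neurons. Its normalized read count was 4218, 4364 and 5518 in WT replicates 1, 2 and 3, and 26191, 16558 and 19592 in CKO replicates 2, 3 and 4. The lowest CKO library thus lay far above the highest WT library. The means were 4700 ± 712 in WT and 20780 ± 4925 in CKO (n = 3 each, SD), a 4.42-fold difference. The limma log2 difference was 2.13 (SE 0.29, adjusted p = 0.0127), and without WT replicate 3 it was 2.25 (adjusted p = 0.0346). Leaving out each library in turn kept the log2 difference between 1.95 and 2.28. The adjusted p then ranged from 0.0346 to 0.157, and leaving out any library other than WT replicate 3 left no gene in the whole table past the threshold. The authors' deposited table gave a log2 fold change of 2.14 for Tubb2a (SE 0.30, adjusted p = 4.16e-10).

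Tubb2b, whose product differs from that of Tubb2a at few residues, had 3620, 3886 and 1204 normalized counts in the WT libraries and 9534, 5993 and 5114 in the CKO libraries. All CKO values lay above all WT values, and WT replicate 3 held less than the other WT libraries. The limma log2 difference was 1.37 (SE 0.47, adjusted p = 0.187) and did not pass the threshold. Without WT replicate 3 it was 0.82. Because reads can move between this pair, their sum was also formed. It came to 7838, 8249 and 6723 normalized counts in WT and 35725, 22551 and 24706 in CKO, or 3.64-fold more on average. The groups did not overlap, and the two-sided exact permutation test gave p = 0.1, the smallest that 3 against 3 libraries allow. The ratio of Tubb2a to Tubb2b was 1.17 and 1.12 in WT replicates 1 and 2, 4.58 in WT replicate 3, and 2.75, 2.76 and 3.83 in the CKO libraries. WT replicate 3 therefore had the highest ratio of all, and the groups overlapped (exact permutation p = 0.6).

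The DNA before the start of Tubb2a and of Tuba1b, the members whose RNA was called at MII or at GV, is shown as the 250 bases upstream of the annotated start, from RefSeq (GRCm38.p6). Capitals mark matches on either strand to the CCAAT box, the GC box GGGCGG and the TATA box TATAAA.
Tubb2a, chr13:34078009-34078258, minus strand: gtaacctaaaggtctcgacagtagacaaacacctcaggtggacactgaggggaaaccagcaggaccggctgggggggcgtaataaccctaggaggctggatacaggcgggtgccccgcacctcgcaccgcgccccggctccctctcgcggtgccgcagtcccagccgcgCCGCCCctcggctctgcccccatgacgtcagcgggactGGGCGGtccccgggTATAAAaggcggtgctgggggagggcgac
Tuba1b, chr15:98934391-98934640, minus strand: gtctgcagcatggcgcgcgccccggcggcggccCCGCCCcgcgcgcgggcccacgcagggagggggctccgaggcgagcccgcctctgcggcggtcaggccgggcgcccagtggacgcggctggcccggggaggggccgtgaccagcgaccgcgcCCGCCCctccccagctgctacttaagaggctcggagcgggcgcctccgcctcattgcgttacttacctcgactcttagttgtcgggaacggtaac
The table held 7 of the 10 members, and Tubb2b, Tubb6 and Tubg1 were not matched. TATAAA occurred in 1 of the 7, Tubb2a, and in 12.4% of all 32851 promoter windows of this length. GGGCGG occurred in 5 of the 7 (Tuba1a, Tuba1b, Tubb2a, Tubb3 and Tubb4b), against 32.7% of all windows. CCAAT occurred in 5 of the 7 (Tuba1a, Tuba1c, Tubb3, Tubb4b and Tubb5), against 33.8% of all windows, and in neither window printed here. None of the 3 motifs overlaps another in letters, and a match is only a description of the sequence.

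The other β-tubulin members gave no call. Tubb5 encodes a widely expressed β-tubulin of dividing cells, and had 24418, 24706 and 6417 normalized counts in the WT libraries and 30988, 24777 and 14009 in the CKO libraries. WT replicate 3 was the lowest of all 6, at 0.261 times the mean of the other WT libraries, and the groups overlapped. Its limma log2 difference of 0.49 (SE 0.53, adjusted p = 0.635) became -0.15 without that library. Tubb3, the β-tubulin used as a marker of neurons, moved the other way in the same library. It had 9387 and 11136 in WT replicates 1 and 2 and 24743 in WT replicate 3, against 19012, 8958 and 12577 in CKO. The highest and the lowest of the 6 values were thus a WT and a CKO library, with the rest mixed between them. The log2 difference of Tubb3 was -0.09 (SE 0.42, adjusted p = 0.924) and was 0.33 without WT replicate 3.

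Tubb4b, a broadly expressed β-tubulin, was the steadiest member. It had 16414, 19297 and 18115 normalized counts in WT and 19964, 15455 and 14665 in CKO, which is 17942 ± 1449 and 16694 ± 2859 (n = 3 each, SD). The coefficient of variation was 8.08% in WT and 17.1% in CKO, the lowest of the 10 members in each genotype. The log2 difference was -0.11 (SE 0.27, adjusted p = 0.833), and it rounded to the same value without WT replicate 3. Tubb6, a divergent β-tubulin, had 11585, 11676 and 7060 in WT and 20502, 13092 and 11938 in CKO. The CKO values lay just above the WT values, with 11676 and 11938 as the nearest pair. The log2 difference of Tubb6 was 0.58 (SE 0.33, adjusted p = 0.409), or 0.34 without WT replicate 3.

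Among the α-tubulin members at MII, Tuba1b differed most. Tuba1b is a ubiquitous α-tubulin, and had 11193, 8285 and 4995 normalized counts in the WT libraries and 26693, 21265 and 10055 in the CKO libraries. CKO replicate 4 fell between WT replicates 1 and 2, and the other CKO libraries lay above all WT libraries. The mean was 2.37-fold higher in CKO, with a limma log2 difference of 1.21 (SE 0.43, adjusted p = 0.201) that did not pass the threshold. Weights that give less to libraries far from their group gave a log2 difference of 1.13 (adjusted p = 0.0260), but under these weights 6.36% of all tested genes were called higher, in place of 0.520%. Without WT replicate 3 the log2 difference was 0.89 (adjusted p = 0.402).

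Tuba1c, the member with the highest mean count, had 29793, 21779 and 17506 normalized counts in WT and 35991, 30223 and 20033 in CKO. The groups overlapped, with a log2 difference of 0.31 (SE 0.33, adjusted p = 0.631). Tuba1a, an α-tubulin of developing neurons, had 3051, 2229 and 2073 in WT and 6927, 2707 and 1836 in CKO. CKO replicate 2 was far above the other libraries and CKO replicate 4 was the lowest of all, so the CKO coefficient of variation, 71.2%, was the largest of any member. The log2 difference of Tuba1a was 0.43 (SE 0.46, adjusted p = 0.635). Tubg1, the principal γ-tubulin of dividing cells, had 3003, 2403 and 2422 in WT and 2343, 1544 and 2678 in CKO. Its groups overlapped, with a log2 difference of -0.28 (SE 0.32, adjusted p = 0.640). Without WT replicate 3 the log2 differences were 0.13 for Tuba1c, 0.32 for Tuba1a and -0.33 for Tubg1.

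**Figure D3:**
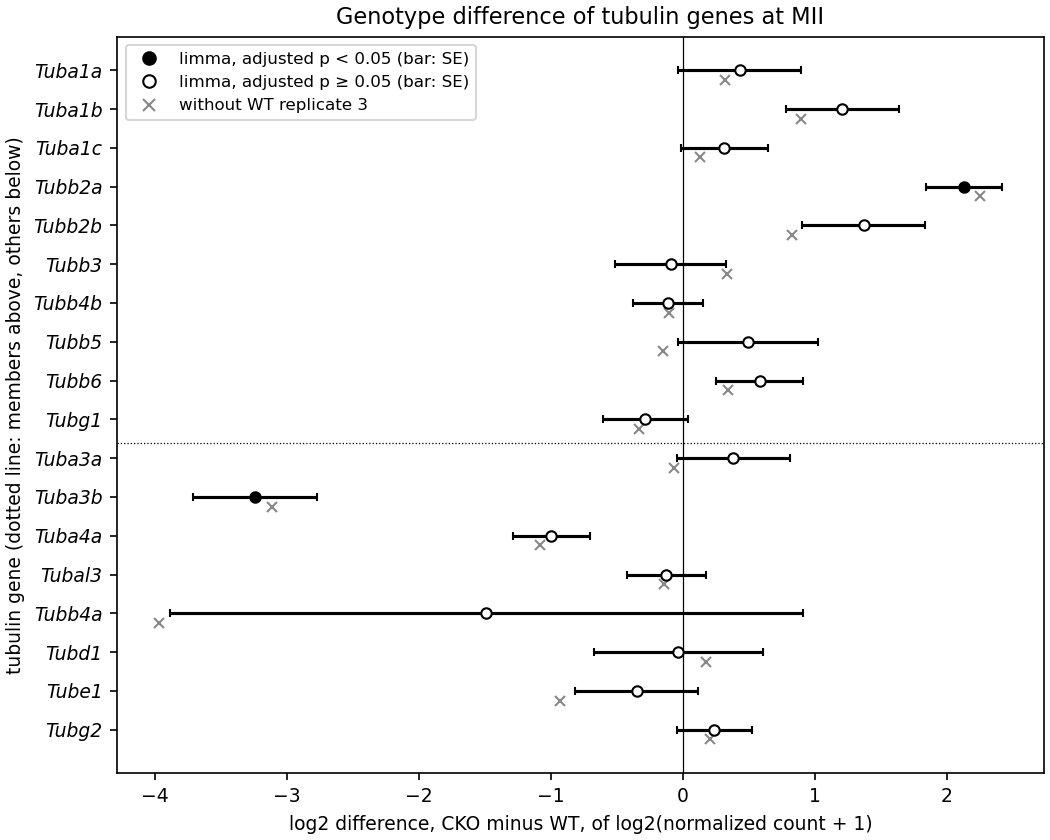
Log2 difference (CKO minus WT) at MII from limma for the 10 members, above the dotted line, and for the 8 other tubulin genes tested, below it, with the standard error as the bar and a cross for the value without WT replicate 3. Filled points, for Tubb2a at 2.13 and Tuba3b at -3.24, passed an adjusted p of 0.05.

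CKO replicate 2 was the highest CKO library for 9 of the 10 members, Tubg1 being the exception, and for 40.5% of all tested genes. CKO replicate 4 was the lowest for 7 members and for 26.0% of all tested genes. The 3 members for which CKO replicate 3 was lowest were Tubb2a, Tubb3 and Tubg1. In WT replicate 3 the members ranged from 0.261 times the mean of the other WT libraries for Tubb5 and 0.321 for Tubb2b to 1.29 for Tubb2a and 2.41 for Tubb3.

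Levels per kilobase of transcript allow for length but not for reads that match several genes. The Tuba1 genes, Tubb2a, Tubb2b and Tubb4b share many stretches with other genes and Tubb3 and Tubb6 none, so the order between genes is uncertain. These levels put Tuba1c first in both genotypes, at 11618 ± 3147 normalized counts per kb in WT and 14505 ± 4077 in CKO (n = 3 each, SD). In WT it was followed by Tubb4b, Tubb3, Tubb5, Tubb6, Tuba1b and Tubb2a, then by Tubg1, Tuba1a and Tubb2b. The WT level of Tubb2a, 2919 ± 443 per kb (SD, n = 3), was the seventh of the 10. In CKO the level of Tubb2a was 12907 ± 3059 per kb (SD, n = 3), the second of the 10, and it was followed by Tuba1b, Tubb4b, Tubb5, Tubb6 and Tubb3, then by Tubb2b, Tuba1a and Tubg1. The ranges of neighbours in each order overlapped except at 1 step, between Tubb2a and Tubg1 in WT and between Tubb3 and Tubb2b in CKO. Elsewhere neighbours in the order did not differ beyond their spread. All 10 were abundant, with mean counts from the 84.7th percentile of listed genes for Tubg1 to the 98.5th for Tuba1c. Together they took 0.141% to 0.355% of the counts of a library.

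Shares within a class do not depend on how libraries are scaled. Those of Tubb2a, Tubb2b, Tubb4b, Tuba1b and Tuba1c did not overlap between the genotypes. The exact permutation test used for them cannot pass the threshold with 3 against 3 libraries. Shares of a class add up to a whole, so they are not independent, and no background over other genes was computed for them. Of the summed normalized counts of the 6 β-tubulin members, Tubb2a made up 6.06%, 5.81% and 8.75% in the WT libraries and 20.8%, 19.5% and 25.2% in the CKO libraries. The mean share went from 6.87% ± 1.63 to 21.8% ± 2.96 (n = 3 each, SD), a difference of 14.9 percentage points without overlap. Without WT replicate 3 the WT mean was 5.94%. The share of Tubb2b was 4.09% ± 1.89 in WT and 7.06% ± 0.49 in CKO, also without overlap (n = 3 each, SD). Tubb4b had the opposite shift, from 26.0% ± 2.59 to 17.6% ± 1.59 without overlap (n = 3 each, SD), although its own count hardly differed. The shares of Tubb3, Tubb5 and Tubb6 overlapped between the genotypes, and Tubb3 made up 39.2% in WT replicate 3 against 13.5% and 14.8% in the other WT libraries.

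Among the 3 α-tubulin members, Tuba1b made up 25.4%, 25.7% and 20.3% in WT and 38.3%, 39.2% and 31.5% in CKO, a difference of 12.6 percentage points without overlap. Tuba1c made up 68.8% ± 2.13 in WT and 56.7% ± 5.59 in CKO, again without overlap (n = 3 each, SD). Its own mean count was 23026 in WT and 28749 in CKO, so the lower share does not mean fewer Tuba1c counts. Tuba1a made up 7.42% and 6.90% on average, and its groups overlapped. When all α-tubulin genes in the table were counted, a setting chosen after the data were seen, the mean share of Tuba1b was 12.8% in WT and 22.5% in CKO. That of Tuba1c was then 37.3% and 35.0%, so its difference shrank to -2.33 points. Over the 9 exact permutation tests of shares, two-sided, the 5 shares without overlap had p = 0.1, the smallest possible, and the others had p from 0.6 to 0.9. No share could therefore reach 0.05 by this test with 3 libraries per group, with or without adjustment.

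**Figure D4:**
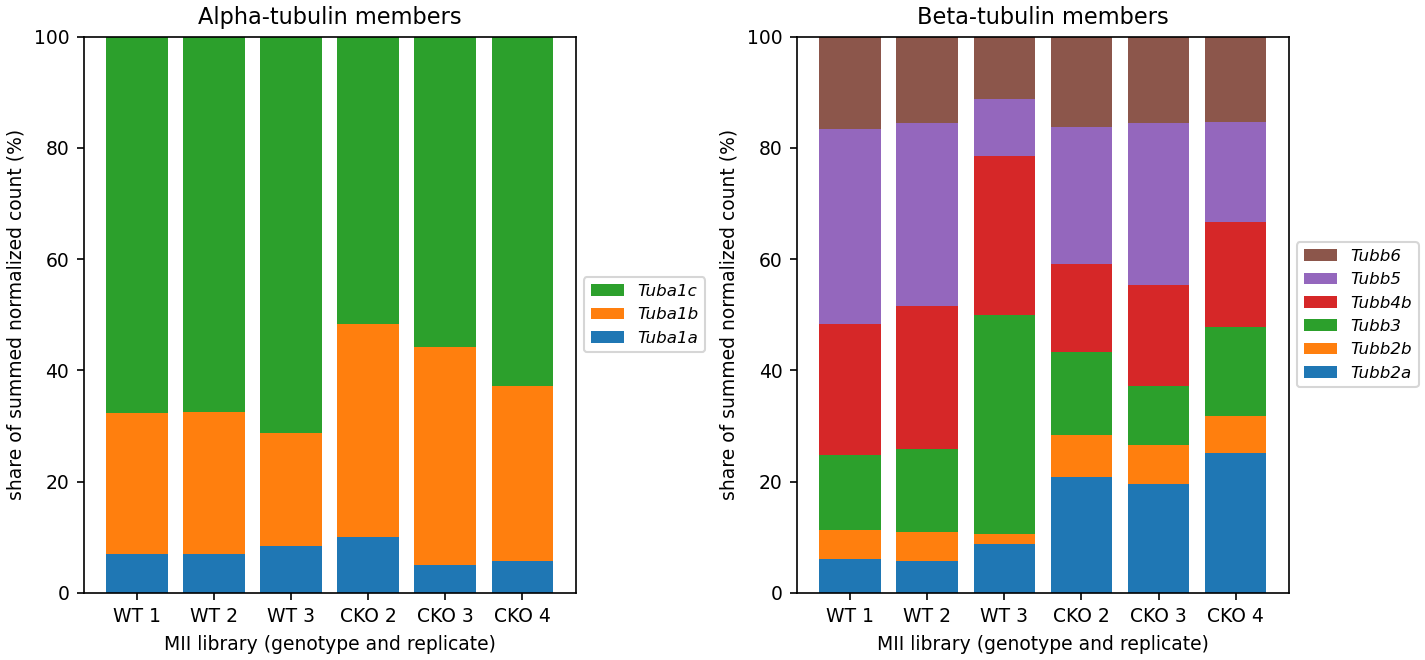
Share (percent of summed normalized counts) of each α-tubulin and each β-tubulin member among the members of its class in every MII library. The Tubb2a share lies between 5.81% and 8.75% in WT and between 19.5% and 25.2% in CKO, and the Tuba1b share between 20.3% and 25.7% in WT and between 31.5% and 39.2% in CKO.

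Summed together, the 6 β-tubulin members came to 69255 ± 6012 normalized counts in WT and 96306 ± 26112 in CKO (n = 3 each, SD), without overlap (exact permutation p = 0.1, the smallest possible). Without Tubb2a the sums were 64555 ± 6623 and 75526 ± 21773 (n = 3 each, SD) and overlapped (exact permutation p = 0.6). The 3 α-tubulin members summed to 33635 ± 9800 and 51910 ± 18947 (n = 3 each, SD), with overlap (exact permutation p = 0.3). The ratio of these β-tubulin to these α-tubulin members was 2.16 ± 0.51 in WT and 1.94 ± 0.45 in CKO (n = 3 each, SD), and the groups overlapped (exact permutation p = 0.7). It is not the ratio of the whole classes, since α-tubulin genes outside the members were left out. Of those, Tuba3a alone had a mean of 22775 normalized counts in WT and 27959 in CKO.

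At GV, Tuba1b was the 1 member among the selected genes and it rose in CKO. Its normalized read count was 9894, 10652 and 11705 in WT replicates 1, 2 and 4 and 25052, 21786 and 21883 in CKO replicates 1, 2 and 4. Every CKO library held more than every WT library, and the replicates of a genotype lay close together. The means were 10750 ± 910 and 22907 ± 1858 (n = 3 each, SD), a 2.13-fold difference, and the authors' deposited table gave a log2 fold change of 1.09 (SE 0.13, adjusted p = 3.13e-16). Among the 21462 genes that the adjusted p-values of that table imply, 4.96% were called higher and 7.89% lower when an adjusted p below 0.05 and more than a 2-fold change were asked for. The corresponding ratio of means at MII was 2.37, with replicates farther apart, and whether the difference changed between the stages was not tested, because the stages were normalized in separate tables. Tubb2a and the other 8 members were not in the GV table and have no GV value here. None of the oocyte markers or of the cumulus and granulosa markers was in that table. It held 4 of 13 markers of theca, stroma and endothelium (Col1a2, Pdgfra, Kdr and Tie1), all called lower, which summed to 963 to 2032 normalized counts in WT and 127 to 372 in CKO. It also held 2 of 12 blood and immune markers, Cd68, called higher, and C1qb, called lower, which summed to 1825 to 2162 and 1026 to 1129. The part of these cells in the Tuba1b difference was not tested.

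**Figure D5:**
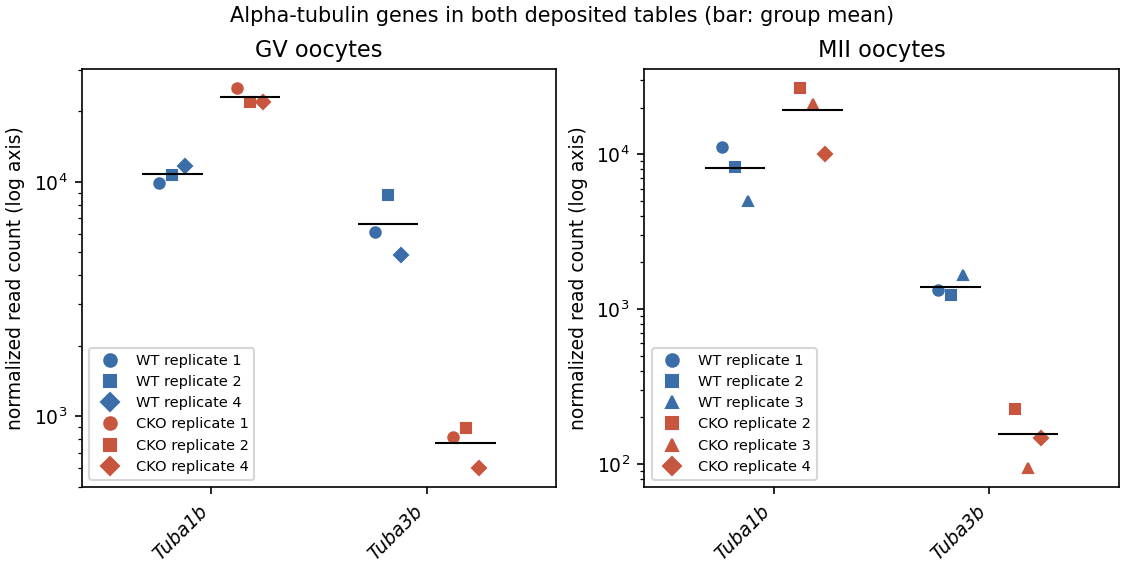
Normalized read count (log axis) of Tuba1b and Tuba3b, the tubulin genes called at GV, in every library of both stages, scaled separately for each stage. Tuba1b lies at 9894 to 11705 in WT and 21786 to 25052 in CKO at GV, and Tuba3b lies lower in every CKO library at both stages.

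Among the other tubulin genes, Tuba3b fell at both stages. It encodes an α-tubulin of a pair first described in testis, the other being Tuba3a. At GV its normalized counts were 6088, 8799 and 4880 in WT and 815, 894 and 601 in CKO, an 8.56-fold difference, and the authors' deposited table gave a log2 fold change of -3.10 (SE 0.26, adjusted p = 3.66e-30). At MII they were 1324, 1224 and 1647 in WT and 227, 93.7 and 146 in CKO, again without overlap. The limma log2 difference of Tuba3b at MII was -3.24 (SE 0.47, adjusted p = 0.0161), and its adjusted p ranged from 0.0414 to 0.157 when single libraries were left out. Tuba3a did not follow, with 32762, 24512 and 11053 in WT and 36568, 28286 and 19023 in CKO (log2 difference 0.38, adjusted p = 0.638). Per kilobase, Tuba3a had a group mean of 15093 ± 7262 in WT and 18528 ± 5816 in CKO (n = 3 each, SD), above those of all 10 members. Its libraries ranged from 7325 to 21711 per kb in WT and from 12606 to 24233 in CKO and overlapped those of Tuba1c in both genotypes, so the order of the pair is not set.

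The coding sequences of Tuba3a and Tuba3b were 97.0% identical, and 29.5% of the 50-base stretches of Tuba3b occurred elsewhere. Their summed count at MII was 24174 ± 10778 in WT and 28115 ± 8816 in CKO (n = 3 each, SD) and overlapped. The ratio of Tuba3b to Tuba3a was 0.0404, 0.0499 and 0.149 in WT and 0.00621, 0.00331 and 0.00768 in CKO, without overlap (exact permutation p = 0.1, the smallest possible). Tuba4a, an α-tubulin whose gene overlaps Stk16 on the opposite strand, had 3160, 3460 and 2766 in WT and 1839, 1418 and 1456 in CKO. Its log2 difference of -0.997 did not pass the threshold (adjusted p = 0.125), but did without WT replicate 3 (adjusted p = 0.0492). Tuba8 was in the GV table with 13.9, 38.2 and 0 normalized counts in WT and 0 in every CKO library, and its adjusted p there was 0.135.

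Other genes of the pathway were counted in 6 lists at MII, of which 93 of 104 genes were tested. No list gene rose by limma and 2 fell, Tuba3b and Tpgs1. At an unadjusted p under 0.05 limma gave 8 higher and 10 lower of the 93, beside the 6.70% and 9.28% of all genes given above. Limma-voom on the recovered reads called 2 in all, where 0.839% of all genes were called in either direction. The calls of the authors' deposited table were 1 higher and 6 lower, beside 4.60% and 6.94% of its genes. Their table for GV called 6 list genes higher and 6 lower of the 104. The shares over all genes there, with more than a 2-fold change, were 4.96% and 7.89%. Without WT replicate 3 limma called 5 lower (Tuba3b, Tuba4a, Tube1, Tbcel and Tpgs1) and none higher, and 3.06% of all tested genes were then called lower. When any other library was left out none was called.

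The folding cofactors, which join α-tubulin and β-tubulin into dimers, had no call by limma among 10 genes at MII. By limma at an unadjusted p under 0.05, 2 were higher and 3 lower, beside 6.70% and 9.28% of all tested genes. Their median log2 difference was -0.33, against -0.11 for all genes tested. The authors' deposited table called 2 of them lower, Tbcel and Pdcl3, beside 6.94% of its genes. Groups did not overlap for 2 that were higher and 4 that were lower, beside 10.4% and 12.0% of all tested genes. Pdcl3, a phosducin-like helper of the CCT chaperonin that folds tubulin, had 1827 ± 1080 normalized counts in WT and 446 ± 158 in CKO (n = 3 each, SD; log2 difference -1.94, adjusted p = 0.0849). Tbcc, a cofactor that acts on the assembled dimer, had 138 ± 38.9 in WT and 16.1 ± 16.5 in CKO (n = 3 each, SD; adjusted p = 0.195), and Tbcd, which holds β-tubulin, had 1230 ± 492 and 2592 ± 583 (n = 3 each, SD; adjusted p = 0.201). By the authors' deposited table for GV, 1 cofactor was higher and 2 were lower. Tbca, which also holds β-tubulin, rose by a log2 fold change of 1.16 there (adjusted p = 0.000666), while Pdcl3 and Tbcc had log2 fold changes of -2.10 and -1.24 (adjusted p = 1.19e-25 and 0.0183).

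The γ-tubulin ring complex and its recruiting partners, 18 genes, had no call by limma at MII. By limma at an unadjusted p under 0.05, 2 were lower and none higher, beside 9.28% and 6.70% of all tested genes. Their median log2 difference was -0.20, against -0.11 for all genes tested. Groups did not overlap for 4 genes, all lower, where 10.4% of all tested genes were higher and 12.0% lower without overlap. Mzt1, a small subunit of the complex, had 673 ± 457 normalized counts in WT and 130 ± 72.6 in CKO (n = 3 each, SD; adjusted p = 0.113), and was called lower by the authors' deposited table (adjusted p = 0.00606). Nedd1, which brings the complex to the spindle, had 4181 ± 916 and 2310 ± 390 (n = 3 each, SD; adjusted p = 0.205). The authors' deposited table for GV called 3 genes of this list. Mzt1 had a log2 fold change of -1.51, while Haus7 and Haus8, subunits of the augmin complex that branches new microtubules from old ones, rose by 1.33 and 1.42 on the log2 scale. At MII their log2 differences were 1.18 for Haus7 and 0.61 for Haus8, with overlapping groups and adjusted p of 0.323 and 0.558.

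Among 25 tested enzymes that modify tubulin, limma called 1 lower at MII, beside 0.991% of all tested genes. The median log2 difference was -0.18, against -0.11 for all genes tested. The gene called was Tpgs1, a subunit of the polyglutamylase complex that adds glutamate to tubulin tails. It had 202, 323 and 382 normalized counts in WT and 0 in every CKO library, which is at least 57.2-fold lower against a floor of 3 reads per library (adjusted p = 0.0150). At GV Tpgs1 was at 1025 ± 340 in WT and 100 ± 65.8 in CKO (n = 3 each, SD), and the authors' deposited table gave a log2 fold change of -3.35 (adjusted p = 1.74e-07). Ttll4, a glutamate ligase for tubulin and other proteins, had 14707 ± 2818 at MII in WT and 23769 ± 3172 in CKO without overlap (n = 3 each, SD; adjusted p = 0.255). Sirt2, a tubulin deacetylase, had 885 ± 603 and 2068 ± 466, also without overlap (n = 3 each, SD; adjusted p = 0.255). Ttll9, a relative of Ttll4, was called lower at GV by the authors' deposited table, with 330 ± 73.1 in WT and 41.7 ± 53.1 in CKO (n = 3 each, SD; adjusted p = 0.00442). Agbl4, a deglutamylase, was listed there at 0 in every WT library and at 4.77 to 23.2 in CKO (adjusted p = 0.0805).

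The 4 genes tied to the decay of tubulin mRNA under excess dimer gave no call at MII, none at an unadjusted p under 0.05 by limma and none in the authors' deposited table. Ttc5, which recognizes the nascent tubulin chain on the ribosome, had 342 ± 259 normalized counts in WT and 172 ± 44.8 in CKO. Scaper, its adaptor, had 1277 ± 564 and 830 ± 185, and Cnot1, the scaffold of the CCR4-NOT deadenylase, had 14327 ± 4974 and 19075 ± 5425 (n = 3 each, SD). All 3 overlapped between the genotypes. None of the 4 was in the GV table.

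Among 28 tested genes of microtubule dynamics and severing, limma called none at MII. The authors' deposited table called 1 higher (Fign), beside 4.60% of its genes. By limma at an unadjusted p under 0.05, 4 were higher and none lower, beside 6.70% and 9.28% of all tested genes. The median log2 difference was 0.19, against -0.11 for all genes tested. Groups did not overlap for 5 that were higher and 1 that was lower, beside 10.4% and 12.0% of all tested genes. Map1b, a microtubule-associated protein, had 23907 ± 5033 normalized counts in WT and 38184 ± 3702 in CKO, and the end-binding protein gene Mapre2 had 16085 ± 2841 and 24781 ± 1653 (n = 3 each, SD; adjusted p = 0.275 and 0.286). The severing enzyme gene Katnal1 had 1076 ± 404 and 1909 ± 287 (n = 3 each, SD; adjusted p = 0.290). By the authors' deposited table for GV, 3 genes of the list were higher and none was lower. Mapre3, another end-binding protein gene, and Katna1, the catalytic subunit of katanin, rose by 1.29 and 1.12 on the log2 scale. Fign, a severing enzyme gene, was at 18.8 to 103 normalized counts in CKO against 1.74, 0 and 0 in WT. At MII Fign was listed at 0 in all but 1 library, CKO replicate 3, where it had 147, and the authors' deposited table nevertheless called it higher there.

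Markers of the oocyte and of other cells were summed in each MII library. The 12 fixed oocyte markers were all listed and summed to 711912 to 784266 normalized counts in WT and 774224 to 859030 in CKO. Of 20 cumulus and granulosa markers 14 were listed, summing to 2938 to 5244 in WT and 3464 to 4516 in CKO, and none was called. From the list for theca, stroma and endothelium, 6 of 13 were listed, at 3760 to 4715 and 3948 to 4655, and none was called. Of 12 blood and immune markers 5 were listed, at 1118 to 1955 in WT and 194 to 215 in CKO, and 1 of them, C1qb, was called lower. The sums of the follicle cell lists thus overlapped between the genotypes, while that of the blood list moved with genotype. Its part in the tubulin values was not tested. Each sum leaned on 1 gene: Nr5a2 (mean count 2123) for cumulus and granulosa, Pecam1 (3715) for theca, stroma and endothelium, and C1qb (815) for blood. The sums therefore do not show how the remaining markers of a list moved. In pooled oocytes, a difference in RNA per cell and a difference in how many cells carry it cannot be told apart.

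Genes like Tuba1c, the member with the highest mean count, were sought over the 6 MII libraries. Other tubulins and predicted and RIKEN gene models were left out of the search. The most alike were Gak, a cyclin G-associated kinase (Pearson r = 0.990 on the log2 scale), Caskin2 (0.987) and Zfp217, a zinc finger gene (0.985). They were the nearest of 9478 genes compared, of which 42 had r over 0.95. These correlations rest on 6 libraries that share their genotype groups, depth and scaling, and are given as a description. Gak had 5113, 3547 and 2899 normalized counts in WT and 6227, 4669 and 3359 in CKO, highest in CKO replicate 2 and lowest in WT replicate 3, as Tuba1c was.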

How the data were processed

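RNA from tubes of 15 mouse oocytes was measured in 12 libraries, 3 for each genotype and stage, per the labels' protocols. Which aligner, counting tool, strand setting and genome build were used is not given in the sources used here. The authors deposited log10(normalized count + 1) for each gene and library, that is, on the log10 scale. The same deposited tables give, per the file headers, the mean signal of the 6 libraries, the authors' log2 fold change and its error, their score from a test, and their p-value with its adjusted form. Every value was a whole multiple of a unit constant within its library (100% within 0.05 of a whole number), which gave the reads behind it. The GV depth is unknown, since that table held selected genes only.

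At MII, limma 3.58.1 (R 4.3.3), with a mean-variance trend and genotype as the term, was run on log2(normalized count + 1) for the 20388 genes with a mean of at least 1, with Benjamini-Hochberg adjustment. The pseudocount understates changes of low genes. At GV the authors' deposited comparison was used, without a fit. Shares, sums and ratios were compared by two-sided exact permutation tests over libraries (scipy 1.17.1). No column of other samples was in the tables. Levels per kilobase used the longest coding transcript of each gene in GENCODE release M21, and promoter windows came from RefSeq (GRCm38.p6).

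The members and lists were chosen with earlier results of these data known. Named were all members, Lsm14b, from each list every gene called at MII (or, where fewer than 3 were called, the 3 of smallest p with a mean of at least 50), every list gene in the GV table, and the 3 genes most like the most abundant member among those with a mean of at least 100. Tuba3a per kilobase, and the sums of near-identical pairs, were added after the values were seen. Alternatives were a pseudocount of 0.1, no filter, scaling by library total, limma-voom on recovered reads, array weights, a replicate block and each library left out. The p-values rest only on these 3 libraries per group, and limma moderates the spread of each gene by that of all tested genes.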

Additional observations from a re-analysis of the deposited data

How the results depend on the processing

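The log2 difference of Tubb2a at MII stayed positive under all 12 alternatives run for it. The number of members called higher was 1 under the main setting, 2 with array weights (Tubb2a and Tuba1b, while calls over all genes went from 308 to 3190), 0 with the replicate block, and 0 to 1 when single libraries were left out. The number of list genes called lower was 2, and was 0 with the replicate block and 0 to 5 when single libraries were left out. These fits have fewer samples or residual degrees of freedom, and with the block, or without any library other than WT replicate 3, no gene of the table was called. Replicate numbers 2 and 3 are shared by the genotypes at MII, but the labels do not say that they pair the samples. Deviations from the group means correlated at 0.013 for number 2 and -0.101 for number 3. With so few libraries per group, such values cannot show whether the samples were paired. Under that replicate block the log2 difference of Tubb2a was 2.09 (adjusted p = 0.587), and the share differences were 12.9 points for Tubb2a and 15.8 for Tuba1b. At GV the mean log2 ratio of Tuba1b over same-numbered libraries was 1.09. Divided by transcript length, the Tubb2a share differed by 17.3 points instead of 14.9. No called difference changed sign under these alternatives. Each member had at least 610 reads in every library, but every CKO library at MII was shallower than every WT library, so depth and genotype cannot be told apart.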
